A study of Mus musculus with 28 samples.

Results

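The 35 genes described here encode enzymes of glycolysis, lactate dehydrogenase, the pyruvate dehydrogenase complex and the citric acid cycle. They were chosen by name and not by a rule on their values, but with earlier results of these data known. All 35 were among the 23995 genes listed in each library. Axon-TRAP (translating ribosome affinity purification) measured their ribosome-bound mRNA in axons that retinal ganglion cells (RGCs) send to the superior colliculus (SC), their midbrain target. The data are 24 libraries, 2 replicates of each of 12 groups, plus 4 single adult libraries of a ribosome run-off experiment.

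All mice were C57BL/6 offspring of RiboTag knock-in mothers, in which Cre recombination appends a hemagglutinin (HA) tag to the ribosomal protein RPL22, and Pax6-alpha-Cre fathers. Each of 4 stages (E17.5, P0.5, P7.5, adult) had a group of SC from Cre-positive mice, a group of SC from Cre-negative littermates and a group of retina. Cre-negative littermates carried the RiboTag allele unrecombined, so that their precipitates measured what binds without a tag. Pax6-alpha-Cre acts in progenitors of the peripheral retina, so retina libraries can hold tagged ribosomes of any cell type that arises there, and by design only axons from the eye carry the tag in SC. Each sample pooled several SCs or eyes, and no source states that the 2 replicates were separate litters. The p-values therefore rest on the spread between these samples, which may in part be technical. In a bulk precipitate, fewer cells or axons of a type cannot be told apart from less mRNA on the ribosomes of each.

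Glycolysis splits glucose into pyruvate in the cytosol, lactate dehydrogenase exchanges pyruvate with lactate, and the pyruvate dehydrogenase complex feeds it into the mitochondrion as acetyl-CoA. The citric acid cycle then oxidizes acetyl-CoA and hands the electrons to the respiratory chain. Axons and growth cones hold both glycolytic enzymes and mitochondria, and photoreceptors are known for intense glycolysis.

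Levels are FPKM, fragments scaled to transcript length and library size, as the authors estimated them, so genes can be compared per length. The read depth of these libraries is not known from the files, and the number of genes above 0 FPKM, 1162 to 8769 per library, stands in for it. At P0.5 the replicates of each group resembled each other most closely of all library pairs (r = 0.94 to 0.95 across 7193 genes on the log2 scale), whereas at other stages replicates correlated at 0.37 to 0.80. Outside P0.5 no library was nearest to its own replicate. The library labelled adult Cre-negative SC replicate 1 was closest to adult retina replicate 2 (r = 0.75), and its 8 photoreceptor genes summed to 83.6 FPKM and its 4 lens genes to 201 FPKM, against 0 to 8.45 and 0 to 10.4 FPKM in the other 15 SC libraries. The library labelled P7.5 retina replicate 1 was closest to P7.5 Cre-positive SC replicate 1 (r = 0.85) and had 1.66 FPKM of photoreceptor genes, against 304 in replicate 2. E17.5 Cre-negative SC replicate 1 correlated with no library above 0.52. Adult retina replicate 1 had only 2082 genes above 0. Results that rest on these 4 libraries are given with and without them.

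As a check of the tissue, 8 RGC marker genes were summed. Pou4f1 gave most of that sum in every library above 0. The sum lay between 0 and 3506.5 FPKM in SC and between 108 and 7430.1 FPKM in retina, and Cre-positive and Cre-negative SC overlapped at all 4 stages. Lens genes summed to 3.11 to 857 FPKM in retina, where whole eyes were the starting tissue. Oligodendrocyte genes, led by Cnp, summed to 735 and 990.5 FPKM in adult Cre-positive SC and to 184 and 4148 in adult Cre-negative SC, against 2.07 to 21.5 in retina. At P0.5 the same sum was 84.7 and 86.6 against 86.2 and 48.1 FPKM, and Mbp and Mog were at 0 in those 4 libraries. The astrocyte sum at P0.5 was 60.8 and 51.9 FPKM in Cre-positive SC and 15.9 and 38.3 in Cre-negative SC, and its part in the results was not tested.

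The members were most widely detected in Cre-positive SC at P0.5. There, 26 of 35 reached 1 FPKM in both replicates, against 7 in both Cre-negative replicates and 10 in both retina replicates of that stage. At the other stages 4, 2 and 3 members reached 1 FPKM in both Cre-positive replicates at E17.5, P7.5 and adult. The share of all genes that reached 1 FPKM in the P0.5 libraries was 16.1% and 15.8% in Cre-positive SC and 6.61% and 6.86% in Cre-negative SC, against 74.3% of members in each Cre-positive library and 20% in each Cre-negative one. Away from P0.5 single libraries carried members that their replicate lacked. E17.5 Cre-negative SC had 22 members at 1 FPKM or more in replicate 1 and 5 in replicate 2, with 15 members at 10 FPKM or more in 1 replicate and at 0 in the other. Summed over the 35 genes, the level was 1544 and 941 FPKM in P0.5 Cre-positive SC, 246 and 117 in Cre-negative SC and 82.4 and 46.5 in retina.

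**Figure D1:**
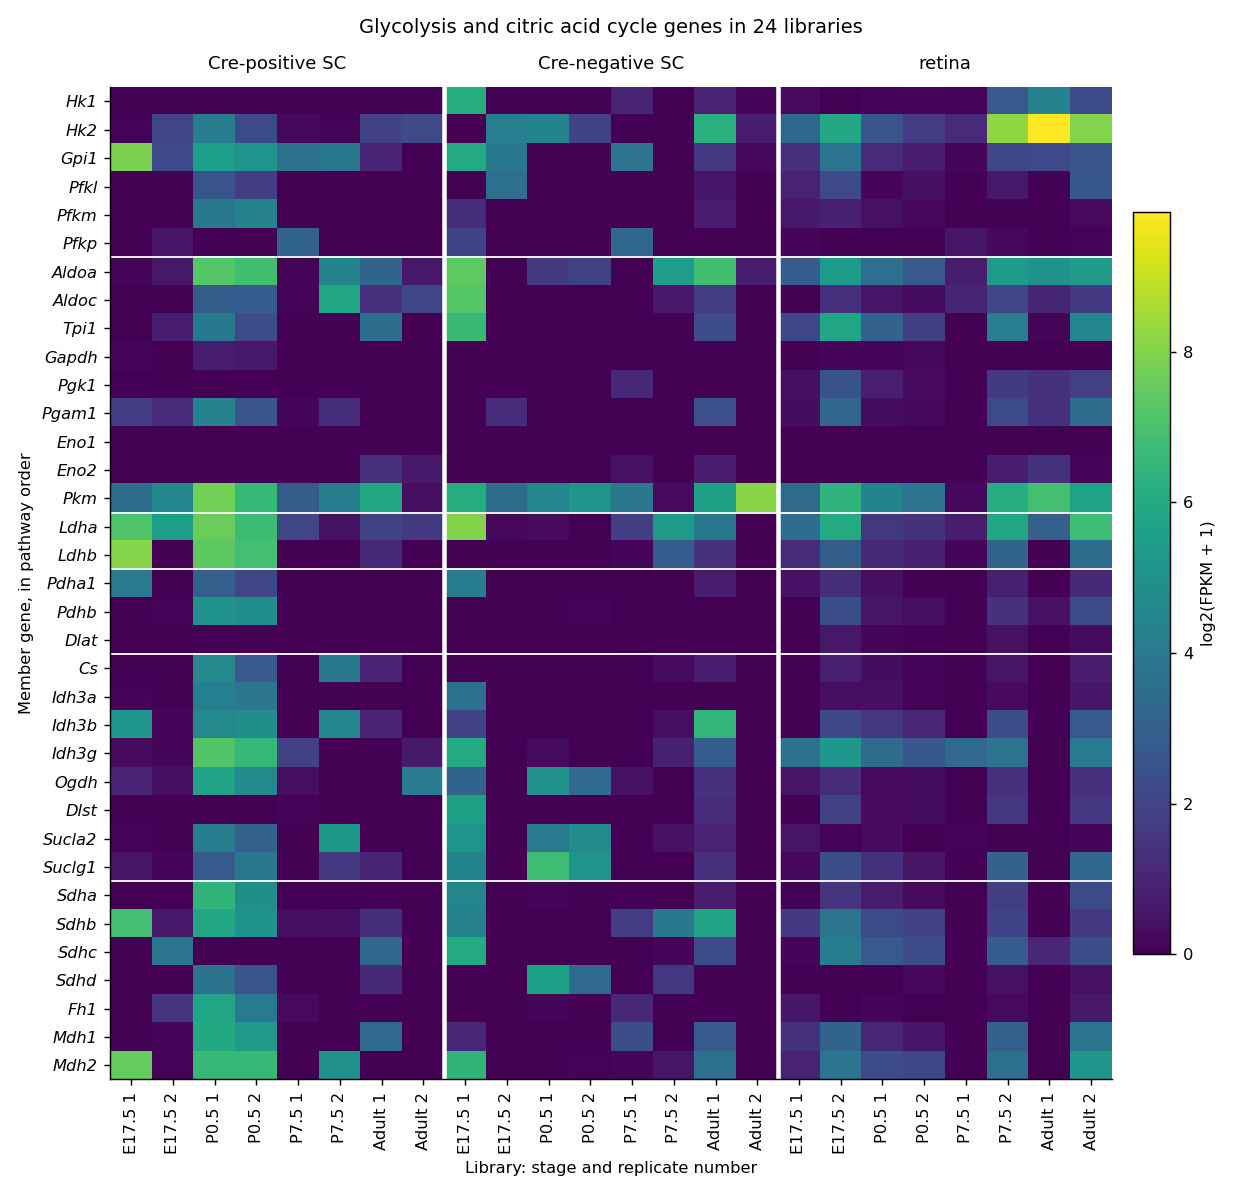
Level of the 35 members (rows, in pathway order, white lines between the 6 enzyme classes) in each of 24 libraries (columns), as log2(FPKM + 1). The P0.5 Cre-positive SC columns are filled for 26 members in both replicates, E17.5 Cre-negative SC replicate 1 is filled for 22, and Hk2 is brightest in adult retina.

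Setting Cre-positive against Cre-negative SC asks which mRNAs were on tagged axonal ribosomes above the untagged background. It was tested with limma on log2(FPKM + 1) over all 16 SC libraries, for the 5983 genes at 1 FPKM or more in at least 2 of them, with p-values adjusted by Benjamini and Hochberg over those genes and a threshold of 0.05. Differences and their SE are given on this log2(FPKM + 1) scale, which understates the change of genes at low levels. The filter kept 29 members and left out Hk1, Gapdh, Pgk1, Eno1, Eno2 and Dlat. At P0.5, 12 of the 29 members were higher in Cre-positive SC and 0 lower, where 28.1% of all genes tested were higher and 4.35% lower. The median difference of the 29 members was 3.68 on the log2(FPKM + 1) scale, against 0.78 over all genes tested. Both Cre-positive libraries lay above both Cre-negative ones for 21 members, a pattern that 51.3% of all genes tested showed, and below them for 1, Suclg1. Pfkl, Pfkm, Pdhb, Cs, Idh3a and Sdha reached 1 FPKM in only 2 or 3 SC libraries, both P0.5 Cre-positive ones among them. They would not have passed the filter without those libraries, and all but Pfkl are among the 12 called. The counts and median of the members describe the list and are not evidence that it stands apart.

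The called members came from every class. Of the steps from hexokinase to phosphofructokinase, Gpi1 and Pfkm were higher among 5 tested. Pfkm encodes the muscle-type subunit of phosphofructokinase, which commits sugar to glycolysis, and stood at 14.4 and 20.2 FPKM in the Cre-positive replicates and at 0 and 0 FPKM in the Cre-negative ones, a difference of 4.18 (SE 0.51, adjusted p = 8.46e-05). Gpi1, glucose-6-phosphate isomerase, stood at 44.8 and 32.8 against 0 and 0 FPKM, a difference of 5.30 (SE 1.78, adjusted p = 0.0427). Both groups were clear of each other for these 2 genes. Hk2, the hexokinase of highest mean FPKM in the data, did not differ in this way: it stood at 16.8 and 3.67 FPKM in Cre-positive and at 20.1 and 3.1 FPKM in Cre-negative SC, with overlapping replicates and a difference of -0.03 (adjusted p = 1).

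From aldolase to pyruvate kinase, Pgam1, phosphoglycerate mutase, was the only one of 5 tested genes that passed. It stood at 19.4 and 5.11 FPKM with Cre and at 0 and 0 without, a difference of 3.48 (SE 0.90, adjusted p = 0.0121). Pkm, pyruvate kinase, which makes the ATP of the last glycolytic step, had higher levels still, 217 and 95.7 FPKM, but was also present in Cre-negative SC at 21.6 and 34 FPKM. Its difference was 2.37 (SE 1.87, adjusted p = 0.462), and the 2 groups did not overlap. Aldoa, the main aldolase of muscle and brain, stood at 149.9 and 115 FPKM against 2.19 and 2.7, with a difference of 5.27 that did not pass (adjusted p = 0.199). Its SE of 2.77 came from a spread shared with the other stages, where Aldoa was between 0 and 169 FPKM in SC.

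Both lactate dehydrogenase genes were higher. Ldha, whose subunit predominates in glycolytic tissue, stood at 197 and 106 FPKM in Cre-positive and at 0.223 and 0 FPKM in Cre-negative SC, a difference of 7.04 (SE 2.27, adjusted p = 0.0363). Ldhb, whose subunit predominates in oxidative tissue such as heart, stood at 163 and 118 against 0 and 0 FPKM, a difference of 7.12 (SE 2.01, adjusted p = 0.0196). Neither gene reached 1 FPKM in either Cre-negative library of this stage.

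In the pyruvate dehydrogenase complex, Pdhb, the beta subunit of the component that decarboxylates pyruvate, had the smallest p of all members. It stood at 32.1 and 27.4 FPKM with Cre and at 0 and 0.0646 FPKM without, a difference of 4.89 (SE 0.37, adjusted p = 8.5e-06). Pdhb was below 0.1 FPKM in all 14 other SC libraries, and these values near 0 enter its SE. Since each SE is taken over all stages, the order of p-values is not an order of the P0.5 differences. Pdha1, which encodes the alpha subunit of the same component, stood at 7.17 and 3.33 against 0 and 0 FPKM and did not pass (difference 2.57, adjusted p = 0.214), and Dlat, the acetyltransferase core, was listed at 0 in every SC library.

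Of the 8 genes from citrate synthase to succinyl-CoA ligase, Cs, Idh3a and Idh3g were higher. Idh3a, the catalytic subunit of NAD-dependent isocitrate dehydrogenase, stood at 17.8 and 14 against 0 and 0 FPKM, a difference of 4.07 (SE 0.89, adjusted p = 0.00497). Idh3g, its regulatory gamma subunit, stood at 145 and 92.6 against 0.256 and 0 FPKM, a difference of 6.70 (SE 1.68, adjusted p = 0.0104). Cs, citrate synthase, which opens the cycle, stood at 23.6 and 5.7 against 0 and 0 FPKM, with a difference of 3.68 (adjusted p = 0.025). Idh3b, the third isocitrate dehydrogenase subunit, had 23.7 and 28 against 0 and 0 FPKM and did not pass (adjusted p = 0.141).

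Some members of this stretch of the cycle were abundant in the untagged precipitate. Suclg1, the alpha subunit of succinyl-CoA ligase, stood at 109 and 32.8 FPKM without Cre and at 5.88 and 14.5 FPKM with it, a difference of -2.56 (SE 1.35, adjusted p = 0.203). Sucla2, the ATP-forming beta subunit of that enzyme, had 15.9 and 25.7 FPKM without Cre and 17.3 and 7.24 with it. Ogdh, of the oxoglutarate dehydrogenase complex, had 30.8 and 9.31 FPKM without Cre and 53.1 and 24.7 with it, and Sdhd, a membrane anchor of succinate dehydrogenase, had 45.8 and 9.23 without and 12.2 and 4.83 with Cre. With Hk2, Pkm and Aldoa, these 4 were the 7 members at 1 FPKM or more in both Cre-negative replicates at P0.5.

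Of the 7 genes of succinate, fumarate and malate dehydrogenation, Sdha, Fh1 and Mdh1 were higher. Sdha, the flavoprotein of succinate dehydrogenase, stood at 86.4 and 28 FPKM with Cre and at 0.11 and 0.0314 without, a difference of 5.56 (SE 1.17, adjusted p = 0.00391). Fh1, fumarase, stood at 53.7 and 16.1 against 0.102 and 0 FPKM, a difference of 4.86 (SE 0.70, adjusted p = 0.000282). Mdh1, the cytosolic malate dehydrogenase of the malate-aspartate shuttle, stood at 61.6 and 37.7 against 0 and 0 FPKM, a difference of 5.62 (SE 1.26, adjusted p = 0.00572). Its mitochondrial counterpart Mdh2 had the highest mean FPKM of this class and stood at 95.5 and 95.4 FPKM against 0 and 0.0765. Its difference of 6.54 carried an SE of 2.65 and did not pass (adjusted p = 0.089). That SE came from a spread shared with other stages, where Mdh2 was between 0 and 184 FPKM in SC.

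**Figure D2:**
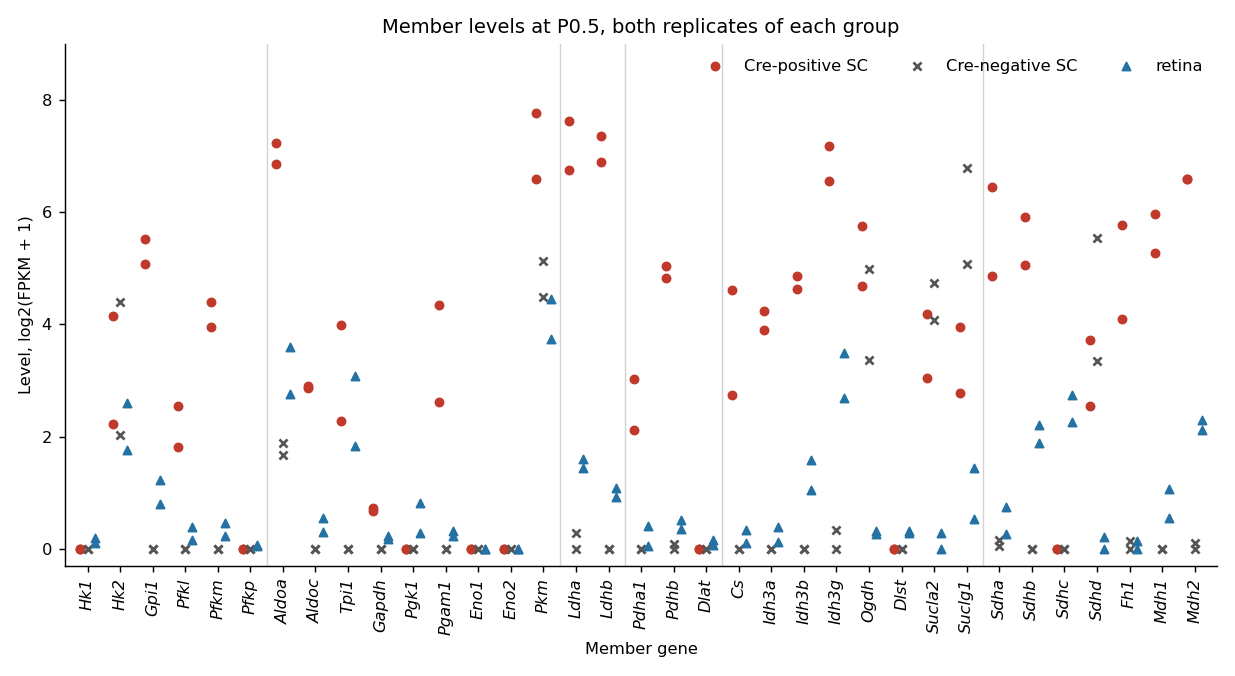
Level of each member at P0.5 as log2(FPKM + 1), 1 point per library, for Cre-positive SC (red circles), Cre-negative SC (grey crosses) and retina (blue triangles), with grey lines between enzyme classes. For 21 of 29 members tested both red points lie above both crosses, and for Suclg1 both crosses lie above the red points.

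Some members were at or near 0 FPKM in P0.5 axons. Hk1, Pfkp, Pgk1, Eno1, Eno2, Dlat, Dlst and Sdhc were listed at 0 in both Cre-positive replicates, and Gapdh stood at 0.664 and 0.597 FPKM. Gapdh and Eno1 belong to steps that every cell uses, yet Gapdh was at or below 0.664 FPKM and Eno1 at or below 0.000192 FPKM in all 24 libraries, retina included. Of the 50-base windows of their annotated transcripts, 82.5% for Gapdh and 72.2% for Eno1 recur in other annotated genes, Gm7336 and Eno1b foremost, and 68.0% for Pgk1. The same share was 41.5% for Pgam1, 34.4% for Pkm, 30.3% for Pdhb, 27.0% for Ldhb and 25.3% for Gpi1, and 0% for Pfkm, Fh1, Sdha and Mdh1. It was likewise 0% for Dlat and Dlst and 0.0961% for Sdhc. A 0 in these values can be a failed estimate and does not show that an mRNA was missing from axons. The part of shared sequence in these values was not tested, and levels of the genes with such copies are uncertain. In GENCODE coordinates of GRCm38, Pdhb lies on chromosome 14, 8165996 to 8173025, Pfkm on chromosome 15, 98092589 to 98132451, and Fh1 on chromosome 1, 175600374 to 175625635.

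These counts leaned on the replicates of P0.5, and so did those of all genes tested, which were lower in each fit without 1 of them. Without Cre-positive replicate 1, which leaves 1 library in that group, 2 members were higher, and without replicate 2, 8 were. Without either Cre-negative replicate, 6 were. Pdhb, Pfkm and Fh1 passed in each of these fits that tested them, which for Pdhb were 2 of 4. A fit of the 4 P0.5 libraries alone called 21 of 26 members higher, Pkm, Aldoa and Mdh2 among them, where it called 59.3% of all genes tested higher. Without E17.5 and adult Cre-negative SC replicate 1, 14 of 28 members were higher, and Suclg1 was lower (difference -2.56, SE 0.87, adjusted p = 0.0476). In that fit 35.5% of all genes tested were higher and 5.32% lower.

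At the other stages no member was called. At E17.5, where 1.57% of all genes tested passed in either direction, the 29 members had a median difference of -0.73. At P7.5 the background was 0% and the median of the members 0, and in the adult the background was 0.15% and the median -0.29. At an unadjusted p under 0.05, limma found 0 members at each of these 3 stages. The E17.5 count turned on single libraries. Without Cre-negative replicate 2, 7 members were lower in Cre-positive SC (Aldoc, Dlst, Idh3a, Idh3g, Sdha, Suclg1 and Tpi1), all of them present in Cre-negative replicate 1, the library that resembled no other. In that fit 13.8% of all genes tested were lower. Without that replicate 1, Pfkl was the only member lower, beside 2.35% of all genes tested (2.05% with adult Cre-negative SC replicate 1 left out too), and without Cre-positive replicate 2, Ldhb was the only member higher, beside 4.38%. Ldhb stood at 265 and 0 FPKM in the E17.5 Cre-positive replicates and Mdh2 at 184 and 0.0704, so that the 2 replicates lay far apart.

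Stages were also compared within Cre-positive SC in the same fit, following axons from elongation at E17.5 through branching at P0.5 and pruning at P7.5 to maturity. From E17.5 to P0.5, 10 of 29 members rose and 0 fell, where 25.1% of all genes tested rose. They were Pfkm, Pdhb, Cs, Idh3a, Idh3g, Ogdh, Sdha, Sdhd, Fh1 and Mdh1, of which only Pfkm is glycolytic. The list does not show that glycolytic members stayed level. All 5 tested genes from aldolase to pyruvate kinase had positive differences, 1.99 to 6.66, and 0 passed. Aldoa had the largest, from 0.101 and 0.544 to 149.9 and 115 FPKM, with an SE that spans all stages. For Sdhd and Ogdh the untagged level was higher at P0.5 as well, since Cre-negative SC went from 0 and 0 to 45.8 and 9.23 FPKM for Sdhd and from 7.84 and 0.0425 to 30.8 and 9.31 FPKM for Ogdh. Pdhb went from 0 and 0.0594 to 32.1 and 27.4 FPKM, a difference of 4.90 (SE 0.37, adjusted p = 9.41e-06). Fh1 went from 0 and 1.76 to 53.7 and 16.1 FPKM, a difference of 4.20 (SE 0.70, adjusted p = 0.000885). Sdha was listed at 0 in both E17.5 replicates, with a difference of 5.65 (SE 1.17, adjusted p = 0.00396), and Pfkm likewise, with 4.18 (SE 0.51, adjusted p = 9.71e-05). Ldha, by contrast, stood at 140.1 and 45.8 FPKM at E17.5 already, and its difference was 0.84 (adjusted p = 0.922). Pfkm, Pdhb, Cs, Idh3a and Sdha would not have passed the filter of this fit without the P0.5 Cre-positive libraries. Whether the citric acid cycle members moved more than the glycolytic ones was not tested.

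From P0.5 to P7.5, 11 members fell and 0 rose, where 29.2% of all genes tested fell. Pdhb was listed at 0 and 0 FPKM at P7.5 and fell by 4.94 on the log2(FPKM + 1) scale (SE 0.37, adjusted p = 9.41e-06). Pfkm, Idh3a, Sdha, Sdhd, Mdh1 and Ldhb were likewise listed at 0 in both P7.5 replicates, with differences from -3.13 for Sdhd to -7.12 for Ldhb. Fh1 stood at 0.179 and 0 FPKM and Ogdh at 0.3 and 0, and Idh3g and Pgam1 completed the list. Some members had high levels in 1 of the P7.5 replicates, Aldoc at 0.057 and 55.7 FPKM, Sucla2 at 0 and 37.4 and Mdh2 at 0 and 31. From P7.5 to adult no member passed, against a background of 0.0836%, and limma found 0 members at an unadjusted p under 0.05. Without P0.5 Cre-positive replicate 1, 2 members rose before P0.5 and 2 fell after it, and without replicate 2, 5 rose and 5 fell. Leaving out either P7.5 replicate left 7 that fell. Pdhb, Pfkm and Fh1 passed in every one of these fits that tested them. For Pdhb those were 2 fits in each interval. It reached 1 FPKM in SC only in the 2 P0.5 Cre-positive libraries, so leaving out either took it out of the test. Fewer of all genes tested were called in each of these fits as well.

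The difference between Cre-positive and Cre-negative SC was itself compared between stages, which takes off a change of the untagged background. From E17.5 to P0.5 it grew for 8 members, Pfkl, Pfkm, Pdhb, Idh3a, Idh3g, Sdha, Fh1 and Mdh1, where it grew for 23.9% of all genes tested. Its change was 4.85 (SE 0.53, adjusted p = 0.000226) for Pdhb and 4.83 (SE 0.72, adjusted p = 0.00068) for Pfkm. For Sdha it was 7.81 (SE 1.66, adjusted p = 0.00538) and for Idh3a 5.82 (SE 1.26, adjusted p = 0.00611), and in E17.5 Cre-negative SC these 2 genes stood at 21.7 and 0 and at 11.3 and 0 FPKM. From P0.5 to P7.5 it shrank for 6 members, Pfkm, Pdhb, Idh3a, Sdha, Fh1 and Mdh1, against a background of 18.7%. Pdhb had a change of -4.89 (SE 0.53, adjusted p = 0.000254), Pfkm of -4.18 (SE 0.72, adjusted p = 0.00176), Fh1 of -5.31 (SE 0.99, adjusted p = 0.00282) and Mdh1 of -6.81 (SE 1.79, adjusted p = 0.0193). From P7.5 to adult it changed for no member and for 0% of all genes tested, with 0 members at an unadjusted p under 0.05. Pfkl, Pfkm, Pdhb, Idh3a and Sdha would not have passed the filter without the P0.5 Cre-positive libraries. Leaving out either of those libraries also lowered the number of all genes called in the first and second intervals. Without P0.5 Cre-positive replicate 1, 1 member was called in the first interval and 0 in the second, and without replicate 2, 5 and 2. Without E17.5 Cre-negative replicate 2 the first count was 13, where 32.2% of all genes tested were called. With 1 library left out at a time, the call held in 2 of 8 fits for Pfkl in the first interval, which stood at 0 and 10.97 FPKM in E17.5 Cre-negative SC. For Mdh1 it held in 1 of 8 fits in each interval, and for Sdha and Idh3a in 7 of 8 in the first and 0 of 8 in the second. In the second interval, leaving out either P0.5 Cre-negative replicate, P7.5 Cre-positive replicate 1 or P7.5 Cre-negative replicate 1 gave 3. Without E17.5 and adult Cre-negative replicate 1 the counts were 8 and 11, where the second called 28.6% of all genes tested, and with a pseudocount of 0.1 FPKM they were 5 and 3.

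**Figure D3:**
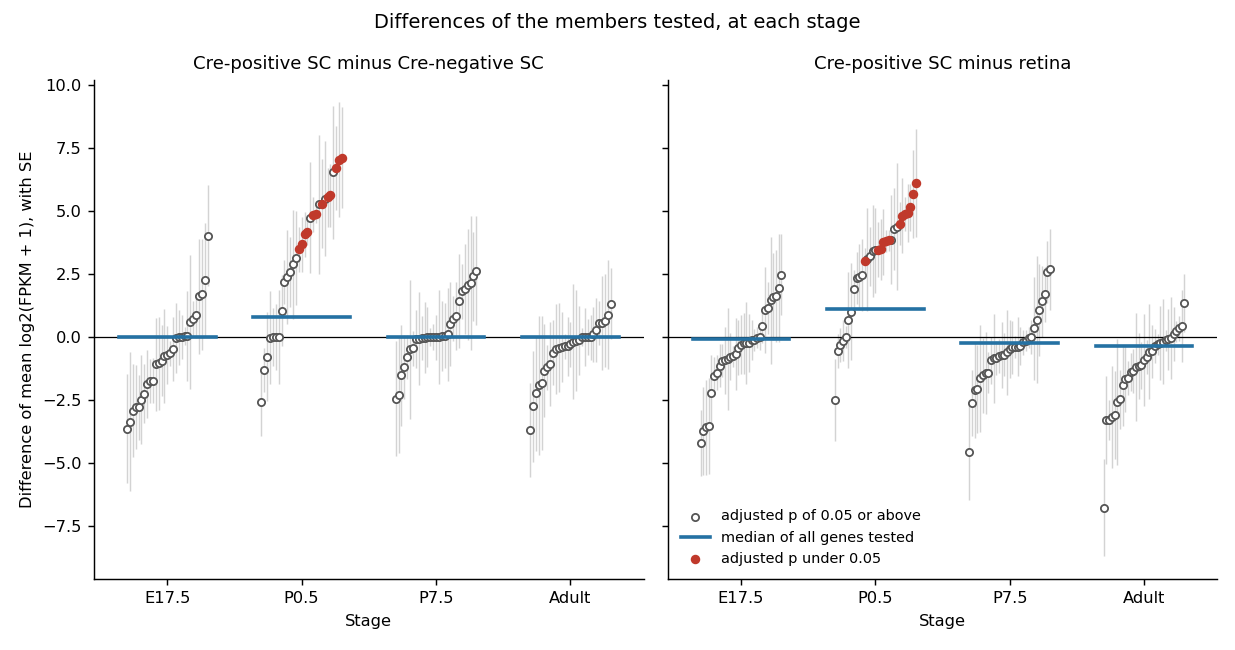
Difference of mean log2(FPKM + 1) for each member tested, with its SE, at 4 stages, for Cre-positive minus Cre-negative SC (left, 29 members) and Cre-positive SC minus retina (right, 31 members). Red points passed the threshold, 12 on the left and 13 on the right and only at P0.5, and blue bars mark the median of all genes tested, 0.78 and 1.10 at P0.5.

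Cre-positive SC was compared with retina to set the axonal against the mainly somal translatome of the same mice, in a fit of 16 libraries with 6321 genes and 31 members (Pfkp, Gapdh, Eno1 and Dlat were left out). At P0.5, 13 members were higher in axons and 0 lower, where 32.7% of all genes tested were higher. In this comparison axons means Cre-positive SC, untagged background included. The median difference was 3.44 over the members and 1.10 over all genes tested. Both axonal libraries lay above both retina libraries for 24 of 31 members, as they did for 53.7% of all genes tested, and below both for 4, as for 28.8% of all genes. These 4 were Hk1, Pgk1, Dlst and Sdhc, listed at 0 in both axonal libraries and at 0.0713 to 5.72 FPKM in retina, and none of them passed. With the replicate number as a block, 9 members were higher in axons, where 31.6% of all genes tested were. The fit shares the P0.5 Cre-positive libraries with the comparison of Cre, so the 2 counts are not independent. Pfkm, Idh3a, Cs, Sucla2, Sdhd and Fh1, all among the 13 called, reached 1 FPKM in no retina library. They would not have passed the filter without the P0.5 Cre-positive libraries. The counts and median of the members against retina therefore describe the list and are not evidence that it stands apart.

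Pfkm stood at 14.4 and 20.2 FPKM in axons and at 0.371 and 0.173 in retina, a difference of 3.83 (SE 0.42, adjusted p = 3.61e-05). Idh3a had 0.314 and 0.0819 FPKM in retina, a difference of 3.82 (SE 0.42, adjusted p = 3.94e-05), and Fh1 had 0.0962 and 0, a difference of 4.87 (SE 0.67, adjusted p = 0.000174). Sdhd, for which Cre-positive and Cre-negative SC overlapped, was higher in Cre-positive SC than in retina. It had 0 and 0.163 FPKM in retina (difference 3.03, SE 0.50, adjusted p = 0.000612). The same holds for Ogdh, at 0.196 and 0.242 FPKM in retina (difference 4.94, adjusted p = 0.00572), and for Sucla2 (difference 3.48, adjusted p = 0.0453). These 3 genes passed against retina but not against Cre-negative SC, so their level in Cre-positive SC was not shown to come from axons. Sdha, Pdhb, Ldha, Ldhb, Mdh1, Cs and Idh3g made up the rest, with differences of 3.46 to 6.12. Sdhc went the other way, with 5.72 and 3.77 FPKM in retina and 0 in both axonal libraries, and did not pass (adjusted p = 0.297). Leaving out 1 P0.5 library at a time left 4 members without Cre-positive replicate 1, 6 without replicate 2 and 7 without either retina replicate, and Pfkm, Pdhb, Idh3a, Sdha, Sdhd and Fh1 passed in each of these fits that tested them. Leaving out either Cre-positive replicate took Pfkm and Idh3a out of the test, so only 2 of these fits tested them. Fewer of all genes tested were called higher in each of these fits too. With no filter on low values 8 members were higher in axons, as were 1910 of 12742 genes tested. A fit of the 4 P0.5 libraries alone called 24 of 27 higher and 1, Sdhc, lower, where 73.4% and 10.9% of all genes tested were.

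At E17.5, P7.5 and adult no member passed against retina, with backgrounds of 1.31%, 0.0158% and 0.0949%. At an unadjusted p under 0.05 limma found 3 members in the adult and 1 at each of E17.5 and P7.5, all lower in axons. Without E17.5 Cre-positive replicate 2, the E17.5 differences were 5.34 for Gpi1, 5.97 for Ldhb and 3.19 for Pdha1. Without P7.5 Cre-positive replicate 1, Sucla2 had a P7.5 difference of 5.22. Each of these rests on the 1 Cre-positive library left in its group. In the adult the difference was -6.78 (SE 1.92, adjusted p = 0.299) for Hk2 and, for Hk1, -3.29 (SE 0.80, adjusted p = 0.19). Without P7.5 and adult retina replicate 1, which leaves 1 retina library at each of these stages, both hexokinases were lower in axons at P7.5, Hk2 with a difference of -8.07 (SE 1.43, adjusted p = 0.0122) and Hk1 with -2.74 (SE 0.23, adjusted p = 0.000513), beside 6.38% of all genes tested. In the adult that fit gave -5.87 (SE 1.43, adjusted p = 0.0484) for Hk2 and -2.22 (SE 0.23, adjusted p = 0.000621) for Hk1, and Pfkl, the liver-type phosphofructokinase, was lower too at -2.70 (SE 0.57, adjusted p = 0.0249), beside 7.24% of all genes tested. The lone retina library is assumed there to vary like the other groups.

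Within retina, Hk2 was the member with the widest range. Hexokinase traps glucose in the cell, and Hk2 is its inducible form, which binds to mitochondria. Hk2 stood at 8.67 and 60.6 FPKM at E17.5, 5.07 and 2.41 at P0.5, 1.3 and 297 at P7.5, and adult libraries had 922 and 261 FPKM. The highest 3 values were those of both adult libraries and P7.5 replicate 2, and the low P7.5 replicate 1 was the one that resembled SC. Photoreceptor genes moved alongside. Their sum was 0.115 and 5.33 FPKM at E17.5, 2.14 and 0.725 at P0.5, 1.66 and 304 at P7.5, and it reached 606 and 244 in the adult, with 7 or 8 of the 8 genes above 0 in every late retina library. In adult Cre-negative SC, Hk2 was 76.3 and 0.664 FPKM, high in the replicate with photoreceptor genes, and in adult Cre-positive SC it was 3.07 and 3.95. The part of photoreceptor content in the Hk2 level was not tested. Hk2 lies on chromosome 6, 82725025 to 82774454, and none of its 50-base windows recurs in another annotated gene.

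In the fit of the 8 retina libraries, with 4080 genes and 24 members, no member passed between consecutive stages. The backgrounds were 0% from E17.5 to P0.5, 0.0735% from P0.5 to P7.5 and 0% from P7.5 to adult, and 0, 0 and 1 members had an unadjusted p under 0.05. Between the late stages (P7.5 and adult, 4 libraries) and the early stages (E17.5 and P0.5, 4 libraries) no member passed either, against 0.956% of all genes tested, with 2 members at an unadjusted p under 0.05. These were Hk2, with a late minus early difference of 3.43 (SE 1.13, adjusted p = 0.154), and Hk1, with 2.22 (SE 0.97, adjusted p = 0.479). In the fit of all 8 libraries limma leaned largely on a spread shared across genes (median degrees of freedom 16320). Its p-values therefore say little about the spread of a single gene. Without P7.5 retina replicate 1, which leaves 1 library in that group, the Hk2 difference was 5.18 (SE 1.04). Without that library and adult retina replicate 1 together, Hk1 passed at 2.35 (SE 0.38, adjusted p = 0.0411) and Hk2 did not, at 4.73 (SE 1.02, adjusted p = 0.0868). Hk1, the hexokinase usually prominent in brain, reached 1 FPKM in 3 retina libraries, P7.5 replicate 2 at 5.70, adult replicate 1 at 19.4 and adult replicate 2 at 3.66 FPKM. Other members of high level in adult retina were Pkm at 122 and 52.1 FPKM, Aldoa at 31.1 and 40.9, and Ldha at 7.01 and 109.8.

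**Figure D4:**
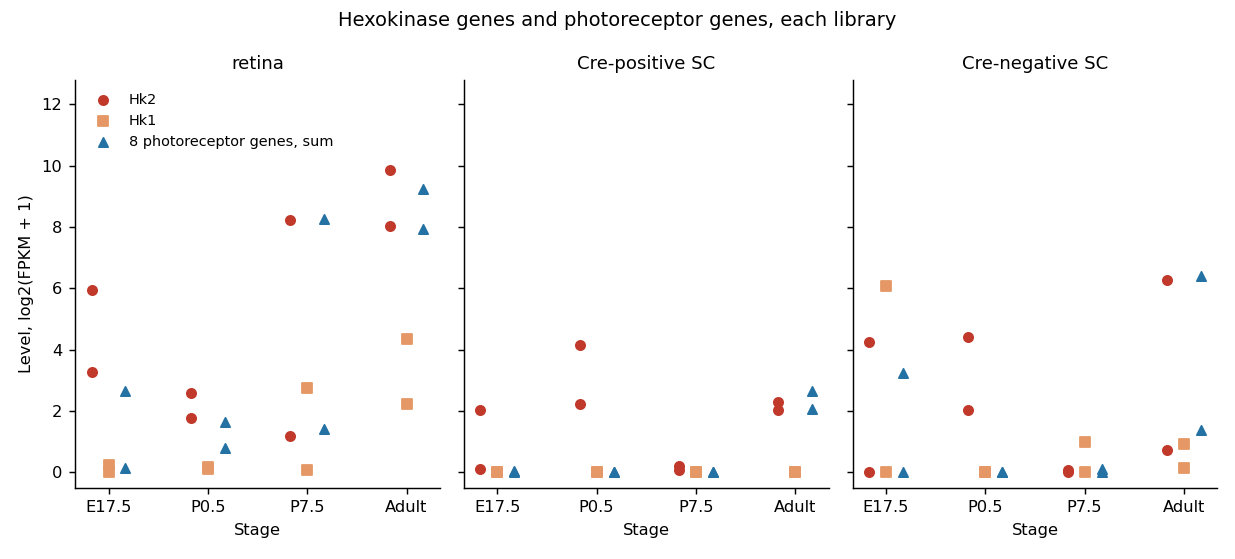
Levels of Hk2 (red circles), Hk1 (orange squares) and the sum of 8 photoreceptor genes (blue triangles) as log2(FPKM + 1), 1 point per library, at 4 stages in retina, Cre-positive SC and Cre-negative SC. In retina Hk2 and the photoreceptor sum are high in P7.5 replicate 2 and both adult libraries and low in P7.5 replicate 1, and in SC they are high together in 1 adult Cre-negative library.

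Several steps are served by related genes, and the share of each was taken per library where the summed level was at least 1 FPKM. Hk2 made up 94.6% or more of Hk1 plus Hk2 in 17 of 18 such libraries and 0% in E17.5 Cre-negative SC replicate 1. Ldhb took 45.3% and 52.5% of the lactate dehydrogenase sum in P0.5 Cre-positive SC and 35.8% and 34.3% in P0.5 retina, against 12.3% and 9.19% in E17.5 retina, 11.6% in P7.5 retina replicate 2 and 0% and 8.42% in adult retina. The Cre-positive SC share at P0.5 thus lay above that of every retina library with a share. At other stages it did not: it was 65.4% and 0% in E17.5 Cre-positive SC, 0% in P7.5 replicate 1, and 28.5% and 0% in the adult. Among phosphofructokinase genes, Pfkm took 74.8% and 89.0% in P0.5 Cre-positive SC, whereas Pfkl took 58.8% and 80.4% in E17.5 retina and 95.6% in adult retina replicate 2. Pfkp, the platelet type, took 100% in P7.5 Cre-positive SC replicate 1 and 99.5% in P7.5 Cre-negative SC replicate 1. Aldoc, the brain aldolase, took 4.16% and 5.16% of the aldolase sum in P0.5 Cre-positive SC and 3.96% in each P0.5 retina library. These shares are descriptions with no test.

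Other genes of the pathway, in 3 lists of 49 genes of which 48 were in the files, were read in the same fits. At P0.5, 22 of them were tested between Cre-positive and Cre-negative SC, and 7 were higher and 1 lower. Of all genes tested 28.1% were higher and 4.35% lower. Among other isoforms and subunits, Idh2, the NADP-dependent isocitrate dehydrogenase of mitochondria, stood at 104 and 42.1 against 0 and 0.0553 FPKM (difference 6.03, SE 0.58, adjusted p = 1.83e-05), and was higher, as was Pdhx of the pyruvate dehydrogenase complex. Among 10 transport and regulation genes tested only Pcx, pyruvate carboxylase, was higher, at 22.7 and 17.9 against 0 and 0.0425 FPKM (difference 4.37, SE 0.73, adjusted p = 0.000852). Of the 7 shuttle and creatine kinase genes tested, Got1, Slc25a11 and Slc25a12 of the malate-aspartate shuttle were higher and Gpd2, the mitochondrial glycerol phosphate dehydrogenase, was lower. Slc25a11, the oxoglutarate carrier, stood at 80.9 and 37.2 against 0 and 0 FPKM, and Gpd2 at 0 and 0.0203 against 7.09 and 5.09. Idh2, Pcx and Slc25a12 would not have passed the filter without the P0.5 Cre-positive libraries, nor Gpd2 without the P0.5 Cre-negative ones. These genes entered the test through the group in which they were high. Against retina at P0.5, 7 of 26 tested were higher in axons and 0 lower, where 32.7% of all genes tested were higher. Ckmt1, Got1, Idh2, Pcx, Slc25a11 and Slc25a12 were among the 7. Pcx and Slc25a12 reached 1 FPKM in no retina library and again needed the P0.5 Cre-positive libraries to pass the filter. In the adult, Mpc1, a subunit of the mitochondrial pyruvate carrier, was the 1 gene of these lists that passed. It stood at 3.56 and 1.99 FPKM in Cre-positive and 0 and 0 in Cre-negative SC (difference 1.88, SE 0.27, adjusted p = 0.0249). It passed against retina as well (difference 1.88, SE 0.28, adjusted p = 0.0362). Only the adult Cre-positive libraries held Mpc1 at 1 FPKM or more, so it passed both filters through the group in which it was high. Of the adult Cre-negative libraries, replicate 1 held photoreceptor and lens genes, and replicate 2 had only 1162 genes above 0.

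In the run-off experiment, adult lysate was incubated so that elongating ribosomes could finish and leave their mRNA before precipitation, and the authors deposited read counts per gene. Each of the 4 groups is 1 library, so there is no test, and intervals below are exact 95% intervals for a ratio of 2 counts that cover counting error only, since amplified reads are not independent molecules. The SC libraries held 349395 reads on genes with run-off and 3262914 without (10.7%), and the retina libraries 315009 and 4686284 (6.72%). Members with at least 20 reads without run-off were read against these totals, as lost more (under 0.5 times the percent of the totals) or kept more (over 2 times).

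In Cre-positive SC, 23 members had 20 reads or more, and all 23 had fewer reads with run-off, as did 97.2% of all genes with that many reads. The median percent kept was 0.312% over the members and 0% over all genes. Of the 23, 17 were lost more than the library, where 74.8% of all genes were, and 4 were kept more, where 11.3% were. The 3 members with the most reads kept 242 of 1970 reads for Pkm (12.3%, interval 10.7 to 14), 201 of 1327 for Aldoa (15.1%, interval 13 to 17.6) and 24 of 966 for Aldoc (2.48%, interval 1.58 to 3.72). Pkm and Aldoa thus followed the library total within 2 times, while Aldoc was lost more. Gpi1 kept 0 of 567 reads, Ldha 0 of 495, Ldhb 2 of 427, Idh3g 1 of 531, Sdha 1 of 320 and Mdh2 0 of 264. A count of 0 allows up to 3 reads, which is 0.529% for Gpi1 and 0.606% for Ldha. The others lost more were Hk1, Pgk1, Pgam1, Cs, Idh3b, Ogdh, Dlst, Sucla2, Sdhb and Sdhc, with 25 to 248 reads without run-off, of which the intervals for Dlst and Sdhb reached past the library percent.

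Kept more in SC were Pfkm with 199 of 341 reads (58.4%, interval 48.7 to 69.7), Eno2 with 86 of 214 (40.2%, interval 30.9 to 51.8), Mdh1 with 165 of 430 (38.4%, interval 31.9 to 46) and Tpi1 with 162 of 554 (29.2%, interval 24.4 to 34.9). All 4 intervals lay above the library percent. Of the 12 members under the minimum, Suclg1 had 97 reads with run-off and 0 without, and Gapdh 12 and 0. Beside them, the 6 oligodendrocyte markers summed to 5344 reads with and 17155 without run-off in SC, a part in these values that was not tested.

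In retina, 31 members had 20 reads or more, and all had fewer with run-off, as did 98.3% of all genes. The median percent kept was 3.33% over the members and 0% over all genes, 16 members were lost more (60.7% of all genes) and 7 were kept more (20.4% of all genes). Hk2 had the most reads and kept 719 of 11785 (6.1%, interval 5.65 to 6.58), Aldoa kept 332 of 3549 (9.35%, interval 8.33 to 10.5) and Pkm 225 of 3393 (6.63%, interval 5.77 to 7.59), all 3 within 2 times the library percent. Ldha was lost more, with 52 of 1819 reads, as were Ldhb, all 3 phosphofructokinase genes with 0 reads left of 130 to 343, Eno2, Pgk1, Pdhb, Dlat, Cs, Idh3a, Sucla2, Suclg1, Sdhc, Sdhd and Fh1. Kept more were Hk1, Aldoc, Idh3b, Idh3g, Ogdh, Dlst and Sdha, led by Idh3g with 68 of 106 reads (64.2%, interval 46.6 to 87.8). Among those lost more, the intervals for Pgk1, Sucla2 and Idh3a reached past the library percent. Photoreceptor genes kept 2078 of 27157 reads and lens genes 3673 of 7849, and their part in these values was not tested. Pfkm and Eno2 were thus kept more in SC and lost more in retina, while Aldoc, Idh3b, Idh3g, Ogdh, Dlst, Sdha and Hk1 were lost more in SC and kept more in retina. With 1 library in each group, differences between SC and retina cannot be told apart from differences between libraries.

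**Figure D5:**
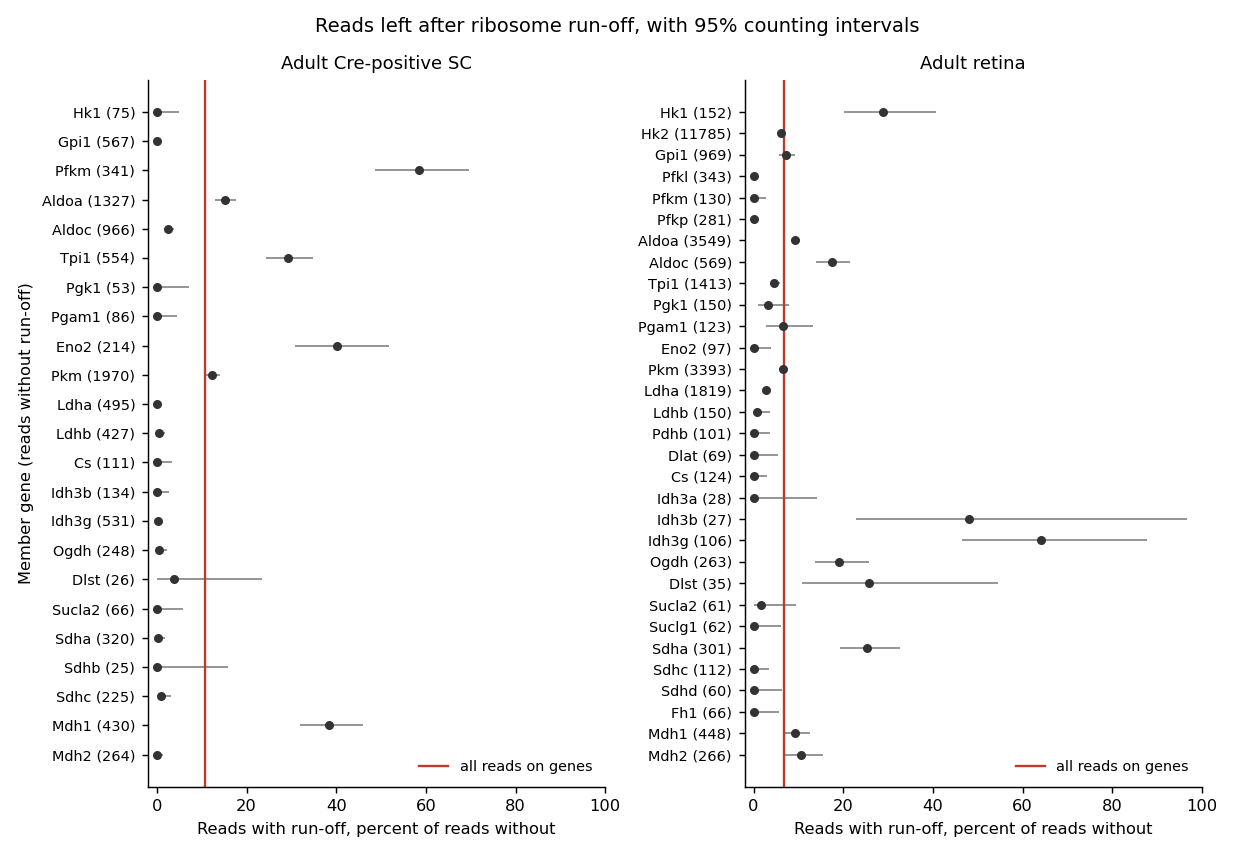
Reads with run-off as a percent of reads without, for each member with at least 20 reads without run-off (number in brackets), in adult Cre-positive SC (23 members) and adult retina (31 members), with exact 95% counting intervals. The red line marks the percent of all reads on genes, 10.7% in SC and 6.72% in retina, and most points lie left of it.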

How the data were processed

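Ribosome-bound mRNA was precipitated with an HA antibody from SC or eye lysate, reverse-transcribed and amplified by PCR before sequencing, and reads were not counted by molecule. According to the submitters' processing notes the tools were TopHat2 2.0.12, Cufflinks 2.2.1 and HTSeq 0.6.1p1, with the genome build mm10. The authors deposited Cufflinks FPKM values per gene for 24 libraries. The run-off files hold HTSeq read counts per gene, deposited by the authors for 4 libraries. The annotation and the strand setting are not given in the sources used here, and overlapping or antisense genes can share reads.

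FPKM values were tested as log2(FPKM + 1) with limma 3.58.1 (R 4.3.3, trend and robust options), on genes at 1 FPKM or more in at least 2 libraries of the fit, with Benjamini-Hochberg adjusted p under 0.05 as the threshold. The study's own test was made on read counts, which for these 24 libraries were not used here. One fit held all 16 SC libraries, one Cre-positive SC and retina, and one the 8 retina libraries. Each comparison was two-sided. The SC and retina fits share the Cre-positive libraries, so their results are not independent. Alternatives were a pseudocount of 0.1 FPKM, no filter, median-ratio scaling, the replicate number as a block, single stages, each replicate left out and, chosen after seeing the data, the libraries that stand apart left out. The scripts were tested on simulated data. Run-off reads were described for genes with at least 20 reads without run-off, with no test, and with 95% exact intervals from the binomial distribution of the 2 counts.

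The members and all gene and marker lists were chosen with earlier results of these data known. Per-replicate values with the test are given for up to 4 called members of smallest p in each direction of each comparison and for the member of highest mean FPKM in each of 6 enzyme classes. Further members are given by single values. Because genes that every cell uses are listed at 0, values are given per library and not as means. Positions and shared 50-base windows were taken from the GENCODE annotation of GRCm38. Nothing in the labels ties replicates to separate litters. Some genes of the other lists are not reported here.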

Additional observations from a re-analysis of the deposited data

Results flagged for a closer look

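The difference between Cre-positive and Cre-negative SC changed between stages for the members below, by the test of the change itself in the limma fit of 16 SC libraries (adjusted p under 0.05 over 5983 genes). From E17.5 to P0.5 the difference on the log2(FPKM + 1) scale grew by 4.85 for Pdhb, 4.83 for Pfkm, 7.81 for Sdha, 5.82 for Idh3a, 4.13 for Fh1, 9.49 for Idh3g, 6.09 for Mdh1 and 3.94 for Pfkl. For Sdha, Idh3a, Idh3g and Pfkl the untagged E17.5 replicates differed widely, with Idh3g at 65.2 and 0 FPKM and Pfkl at 0 and 10.97. From P0.5 to P7.5 the change was -4.89 for Pdhb, -4.18 for Pfkm, -5.31 for Fh1, -6.81 for Mdh1, -5.56 for Sdha and -4.07 for Idh3a. Of all genes tested, the difference grew for 23.9% in the first interval and shrank for 18.7% in the second. Pfkl, Pfkm, Pdhb, Idh3a and Sdha would not have passed the filter without the P0.5 Cre-positive libraries. The list therefore describes these members and is not evidence that they stand apart. With 1 library left out at a time, the call for Pfkl held in 2 of 8 fits, that for Mdh1 in 1 of 8 in each interval, and those for Sdha and Idh3a in 0 of 8 in the second interval. Both intervals share the P0.5 libraries and are not independent.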

How the results depend on the processing

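No difference changed sign among the up to 4 called members of smallest p in each direction of each comparison. The same held for Hk1 and Hk2 in late against early retina. Signs of other named values were not compared. Leaving out 1 replicate at a time, the members called by Cre were 0 to 1 higher and 0 to 7 lower at E17.5 and 2 to 8 higher at P0.5 (12 with all libraries). In axons 2 to 8 rose from E17.5 to P0.5 (10) and 2 to 7 fell to P7.5 (11). The Cre difference grew for 1 to 13 (8) and then shrank for 0 to 4 (6). Against retina 0 to 3 were higher at E17.5, 4 to 7 at P0.5 (13) and 0 to 1 at P7.5. In retina 0 to 1 were higher from P7.5 to adult and 0 to 1 in late against early stages. For the other comparisons every such count was 0. At P0.5 the number of all genes called higher, by Cre and against retina, also fell in each such fit. A left-out replicate leaves 1 library in its group, which is assumed to vary like the others, and the cause of these shifts was not tested. With the stage fitted alone the P0.5 counts were 21 by Cre (59.3% of all genes), and 24 higher (73.4%) and 1 lower (10.9%) against retina. With a pseudocount of 0.1 FPKM the Cre difference grew for 5 and shrank for 3, beside 1331 and 1039 of 5983 genes. With no filter 8 were higher than in retina at P0.5, beside 1910 of 12742 genes. Without the libraries that stand apart, a choice made after seeing the data, 1 member was lower by Cre at E17.5 and 1 at P0.5, the Cre difference shrank for 11, 2 members at P7.5 and 3 adult ones were lower than in retina, and 1 was higher in late retina. For run-off, a minimum of 100 reads left 11 members lost more in SC and 9 in retina, and 20 of 31 had fewer in retina once reads were scaled to the library total. With a summed level of at least 5 FPKM the median share was 18.11% for Pfkl (33.94% otherwise) and 1.648% for Pfkm (26.16%). Of the values for the up to 4 called members of smallest p in each comparison, with Hk1 and Hk2 in late against early retina, 115 kept their direction and side of the threshold with 1 replicate left out, 14 no longer passed and 1 newly passed, and under the other alternatives these numbers were 136, 1 and 1. Over all members, 16 passed in a comparison in which they otherwise did not when 1 replicate was left out, 13 with the stage fitted alone, 10 without the libraries that stand apart, 4 with the replicate block, and 1 each with another pseudocount, filter or scaling.

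Median-ratio scaling gave counts of 12, 10, 11, 8, 6 and 14 in the comparisons with calls. Beside them, 1647, 1483, 1738, 1412 and 1105 of 5983 genes and 2051 of 6321 genes were called in the same direction. It shifted the median difference of all genes by -0.16 against retina at P0.5, by -0.11 for the growth of the Cre difference, and by 0.38, -0.29 and -0.12 in retina for P0.5 against E17.5, P7.5 against P0.5 and late against early.

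Replicate numbers are shared between groups, but the deviations of same-numbered libraries correlated at only 0.081 and -0.098 in the adult (0.150 to 0.565 elsewhere), and no source ties a number to a litter or to mice. Pairing by number was therefore not established. With the replicate number as a block, 15 members were higher by Cre at P0.5 and 9 higher than in retina. Of all genes tested, 1777 of 5983 and 2000 of 6321 were. The other counts stayed at 10, 11, 8 and 6, beside 1507, 1796, 1434 and 1128 of 5983 genes. Read depth is unknown for the FPKM libraries, and no interval can be given for a value of 0.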

Other observations

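Among the other genes of the pathway, Pdp2, a phosphatase that activates pyruvate dehydrogenase, had the highest mean level. At P0.5 it stood at 827 and 383 FPKM in Cre-positive SC, 1871 and 553 in Cre-negative SC and 1038 and 269.9 in retina, with a Cre difference on the log2(FPKM + 1) scale of -0.85 (SE 2.31, adjusted p = 1). Ckb, the cytosolic creatine kinase of brain, came next. At P0.5 its level was 2592 and 1454 FPKM with Cre against 759.9 and 272 FPKM without, a difference on the log2(FPKM + 1) scale of 2.09 (SE 2.95, adjusted p = 0.84). In adult Cre-negative SC it stood at 26.4 and 1937 FPKM, high in the replicate in which oligodendrocyte genes summed to 4148 FPKM. The part of oligodendrocyte content in that level was not tested.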
